A study of Mus musculus with 17 samples.

Results

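The genotype by PTZ comparison measured how much of the hippocampal response to pentylenetetrazol (PTZ, a GABA-A receptor blocker that provokes seizures) was kept when the lysine acetyltransferase CBP was truncated in forebrain excitatory neurons. It used 11 of the 17 RNA-seq libraries of a kindling experiment in mice labelled C57BL/6 (C57BL/6J in the methods), chosen by their labels alone: 3 Control Sal, 2 Control PTZ45, 3 CBP-ifKO Sal and 3 CBP-ifKO PTZ45. All mice were 3 to 6 months old per the labels, and the methods describe the saline samples as hippocampal RNA of individual males. CBP-ifKO mice carried floxed Crebbp and Camk2a-creERT2, a tamoxifen-dependent recombinase expressed in forebrain excitatory neurons, so that by design CBP stayed whole in interneurons, glia and vessels. The methods give tamoxifen to every mouse and describe controls as littermates without creERT2, whereas the labels of the controls also name the Camk2a-creERT2 line. PTZ45 mice had been kindled with 45 mg/kg PTZ on alternate days, received the same dose again 1 week later and were killed 45 min after it, while Sal mice were never kindled and got saline alone. PTZ45 against Sal therefore joins the last injection with the kindling before it. The libraries ran on lane 3 (Control Sal), lane 4 (Control PTZ45 and CBP-ifKO Sal) and lane 5 (CBP-ifKO PTZ45), so within a genotype the lane and the treatment cannot be told apart. A seizure that differs between genotypes and an effect of CBP at the genes themselves cannot be told apart in these groups either.

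CBP, encoded by Crebbp, is recruited by CREB, AP-1 and other activity-regulated factors to enhancers and promoters, where it acetylates histone tails and links factors to the transcription machinery. Immediate early genes are transcribed within minutes of neuronal firing without new protein synthesis. They encode transcription factors such as Fos and Npas4, synaptic proteins such as Arc, and brakes on signalling such as the MAP kinase phosphatases. Blood vessel and glial cells have immediate early genes of their own, which respond to growth factors, flow and injury.

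The response of a gene is its log2 fold change in PTZ45 over Sal, and the kept fraction is the CBP-ifKO response as a percentage of the control response, with a 95% interval by Fieller's method given in parentheses after it. The genes were chosen by the control comparison alone, which raises their control values and lowers the kept fraction, and the fractions are therefore a description. The comparison within CBP-ifKOs shares no library with the control one. Genes that share a promoter element kept very different fractions, and the promoters of 6 genes are shown for that reason. They are the RefSeq stretches from 250 bases before to 50 bases after the transcription start in GRCm38.p6, read on the strand of the gene. Capitals mark the letters searched for on both strands: the full cAMP response element TGACGTCA, its shorter part TGACG, also counted inside the full site and read as CGTCA where it lies on the other strand, and TATAAA as the TATA box. Apold1 (chr6:134981751-134982050, + strand) and Gadd45g (chr13:51846425-51846724, + strand) both held TATAAA and kept 78.3% and 0.872%. Dusp1 (chr17:26508423-26508722, - strand), Btg2 (chr1:134079106-134079405, - strand), Ppp1r15a (chr7:45526219-45526518, - strand) and Arl4d (chr11:101665291-101665590, + strand) each held the full element. The RefSeq start of Dusp1 lies inside the longer gene model over which its reads were counted.
Apold1: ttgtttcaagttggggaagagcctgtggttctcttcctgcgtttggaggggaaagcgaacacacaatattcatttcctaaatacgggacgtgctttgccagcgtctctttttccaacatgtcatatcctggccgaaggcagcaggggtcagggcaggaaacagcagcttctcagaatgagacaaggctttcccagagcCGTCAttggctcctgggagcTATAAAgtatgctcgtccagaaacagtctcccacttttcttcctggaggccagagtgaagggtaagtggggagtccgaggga
Gadd45g: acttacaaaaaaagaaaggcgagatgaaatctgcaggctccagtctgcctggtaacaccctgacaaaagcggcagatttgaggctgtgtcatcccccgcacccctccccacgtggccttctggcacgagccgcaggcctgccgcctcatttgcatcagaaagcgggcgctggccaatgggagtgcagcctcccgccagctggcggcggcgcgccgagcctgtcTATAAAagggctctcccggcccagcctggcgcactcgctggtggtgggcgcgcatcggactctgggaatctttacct
Dusp1: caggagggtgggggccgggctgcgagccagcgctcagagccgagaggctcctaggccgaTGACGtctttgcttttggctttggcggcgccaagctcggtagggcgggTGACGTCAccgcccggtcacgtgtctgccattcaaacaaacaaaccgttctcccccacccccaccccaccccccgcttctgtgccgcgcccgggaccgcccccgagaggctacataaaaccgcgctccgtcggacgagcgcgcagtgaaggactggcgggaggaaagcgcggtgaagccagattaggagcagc
Btg2: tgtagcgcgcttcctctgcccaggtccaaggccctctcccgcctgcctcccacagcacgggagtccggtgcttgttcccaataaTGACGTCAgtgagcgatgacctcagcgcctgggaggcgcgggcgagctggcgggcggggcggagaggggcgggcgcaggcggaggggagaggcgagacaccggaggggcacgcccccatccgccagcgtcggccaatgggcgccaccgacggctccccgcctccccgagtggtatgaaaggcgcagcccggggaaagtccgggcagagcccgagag
Ppp1r15a: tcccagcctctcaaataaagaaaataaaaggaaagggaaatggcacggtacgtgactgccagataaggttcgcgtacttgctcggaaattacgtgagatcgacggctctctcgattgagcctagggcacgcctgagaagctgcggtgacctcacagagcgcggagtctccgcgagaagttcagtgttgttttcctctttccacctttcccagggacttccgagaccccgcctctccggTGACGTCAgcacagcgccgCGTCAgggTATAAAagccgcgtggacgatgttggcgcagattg
Arl4d: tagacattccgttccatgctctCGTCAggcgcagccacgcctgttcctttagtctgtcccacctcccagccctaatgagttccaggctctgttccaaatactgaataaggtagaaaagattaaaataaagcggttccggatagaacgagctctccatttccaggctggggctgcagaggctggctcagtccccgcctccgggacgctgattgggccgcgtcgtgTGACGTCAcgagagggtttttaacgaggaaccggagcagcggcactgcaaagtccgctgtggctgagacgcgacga

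Genes with the same letters in their promoters differed widely in what they kept. Promoters were found for 42 of the 76 genes raised at least 2-fold in controls. The full cAMP response element stood in 5 of the 42 (11.9%) and in 1.86% of all 27025 promoters of that length. Its 5 holders kept 50.9% (Dusp1), 32.7% (Btg2), 15.4% (Kif18a), 10.04% (Ppp1r15a) and -2.68% (Arl4d), with a median of 15.4% against 17.4% in the 37 without it. TGACG stood in 24 of the 42 (57.1%) and in 20.9% of all promoters, with a median kept fraction of 20.6% with it and 11.6% without it. The genes with TGACG also had the larger median control response (log2 2.39 against 1.46), and in CBP-ifKO PTZ45 replicate 1 alone the medians were 16.2% and 16.4%. TATAAA stood in 12 of the 42 (28.6%) and in 14.2% of all promoters, with medians of 13.6% and 19.9%. The Egr site (GCGTGGGCG or GCGGGGGCG) stood in 7 (16.7%, against 3.49% of all), with medians of 16.2% and 17.4%. The CArG box, bound by serum response factor, stood in the promoters of Actg1 and Zfp36 among the 42 (1.57% of all promoters), and the AP-1 site (TGACTCA or TGAGTCA) stood in 0 of the 42 and 5.16% of all. A match is a description of these letters in this window and not a bound site.

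The control response was wide and the CBP-ifKO response narrow. In controls 163 of 17367 genes were called higher in PTZ45 (0.939%) and 41 lower (0.236%) by DESeq2 at an adjusted p under 0.05. In CBP-ifKOs 17 of 19757 were called higher (0.086%) and 41 lower (0.208%). These counts moved with the settings. The 163 became 69 with the replicate block and 105 without Control PTZ45 replicate 2, and the 41 lower in controls became 2 without Control Sal replicate 2. The 17 became 4 by edgeR, 11 without CBP-ifKO Sal replicate 2 and 11, 10 and 6 without CBP-ifKO PTZ45 replicates 1, 2 and 3. The interaction of genotype and treatment over 11 libraries was called for 69 of 20945 genes (0.329%) with a lower response in CBP-ifKOs and for 0 (0.0%) with a higher one. At an unadjusted p under 0.05 there were 301 lower and 116 higher genes, and edgeR called 43 lower, all of them among the 69, and 0 higher. Without Control PTZ45 replicate 1 the 69 became 37, and without replicate 2 they became 48. All 69 genes belonged to the 163, as the control response enters both tests. They made up 51 of the 76 genes with at least a 2-fold control response and 18 of those under 2-fold. The 16 genes called higher in both genotypes were 9.82% of the control list and 94.1% of the CBP-ifKO list: Fos, Fosb, Npas4, Egr1, Egr2, Nr4a1, Arc, Ptgs2, Btg2, Dusp1, Apold1, Ccn1, H3f3b, C630044B11Rik, Gm47075 and Gm47088. The remaining CBP-ifKO call, Gm43864, had 0.898 normalized counts in Control Sal replicate 3 and between 106 and 277 in the other libraries.

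**Figure D1:**
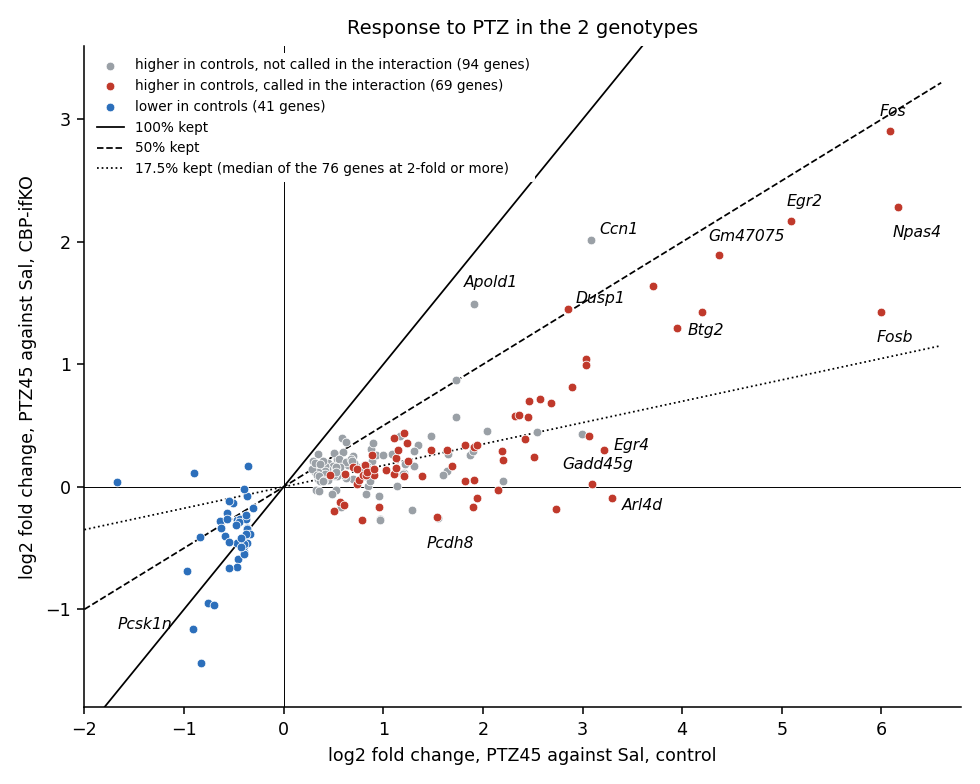
Log2 fold change of PTZ45 over Sal in controls (x axis) and in CBP-ifKOs (y axis) for the 163 genes called higher in controls (red where called in the interaction, otherwise grey) and the 41 called lower (blue), with lines at kept fractions of 100%, 50% and 17.5%, the median of the 76 genes raised at least 2-fold. Of the 163 genes 76 kept 0 to 25% and 52 kept 25 to 50%, and Apold1 and Ccn1 stand above the line of 50%.

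Most responsive genes kept a small part of the control response. Over the 76 genes with at least a 2-fold control response the median log2 fold change was 1.91 in controls and 0.30 in CBP-ifKOs, and the median kept fraction was 17.5% (quartiles 9.49% and 28.1%). Measured as the rise in normalized counts instead of on the log2 scale, the median was 8.05%. The kept fraction was below 0 in 8 genes, from 0 to 25% in 43, from 25 to 50% in 21, from 50 to 75% in 3 and above 75% in 1. Its 95% interval lay wholly above 0 in 28 of the 76 genes, wholly below 50% in 43 and wholly below 100% in 72. Without the 2-fold minimum the 163 genes had a median of 20.5%.

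The CBP-ifKO response was small but not absent. Of the 56 genes with a 2-fold control response and a mean of at least 50 normalized counts, 26 (46.4%) were higher in every CBP-ifKO PTZ45 library than in every CBP-ifKO Sal library, against 1026 of all 13007 genes at that level (7.89%). A positive log2 fold change in CBP-ifKOs was found for 68 of the 76 genes (89.5%), for 141 of the 163 (86.5%) and for 50.5% of all genes tested. All 56 of the genes averaging at least 50 were higher in both Control PTZ45 libraries than in every CBP-ifKO PTZ45 library, against 19.1% of all genes at that level, but they were chosen by their Control PTZ45 values and nothing is read from this count. In Sal mice the 76 genes were at a median log2 ratio of -0.17 in CBP-ifKOs relative to controls.

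**Figure D2:**
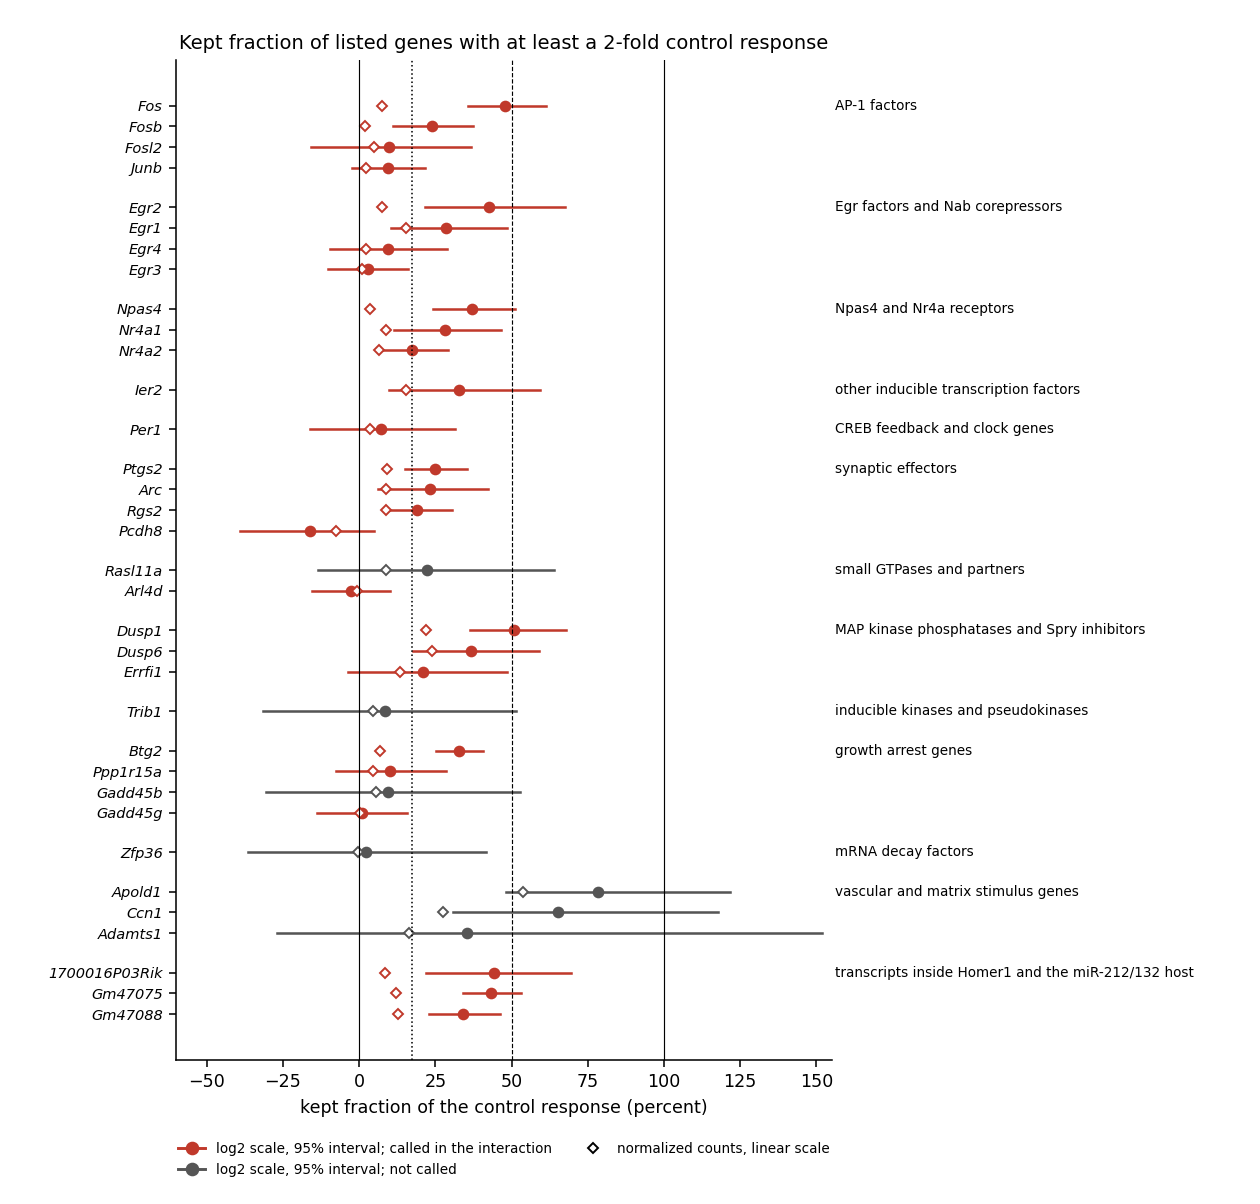
Kept fraction (percent of the control log2 response) of the listed genes with at least a 2-fold control response and a mean of at least 30 normalized counts, with the 95% Fieller interval (red where called in the interaction, otherwise grey), grouped by class, and open diamonds for the fraction of the rise in normalized counts. Vertical lines mark 0%, 50%, 100% and the median of 17.5%. Apold1, Ccn1 and Dusp1 lie above 50%, and the intervals of Arl4d, Gadd45g, Egr3 and Pcdh8 include 0 and stay far below 50%.

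A direct contrast asked whether the CBP-ifKO response differed from 0.5 of the control response. It was negative and called for 13 of 37820 genes tested (0.0344%), each of them among the 163: Arl4d, Egr3, Gadd45g, Gm13889, Gm37824, Gm43361, Gm45902, Jun, Junb, Nr4a2, Pcdh8, Ptgs2 and Rgs2. By edgeR 8 responsive genes were called in this direction. The contrast was positive and called for 0 genes by DESeq2 and by edgeR. At an unadjusted p under 0.05 it was positive for 0 of 163 and 0 of 177 responsive genes. Apold1 had the largest kept fraction of the 76 genes raised at least 2-fold, and its interval reached down to 48.3%.

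AP-1 factors, the Fos and Jun proteins that pair to bind AP-1 sites, were represented by 5 responsive genes of 7 measured. All 5 were called in the interaction, against 69 of all 163 responsive genes (42.3%). At 2-fold or more 51 of 76 were called (67.1%), and 23 of the 26 with the strongest control response. The counts of calls in the other classes stand beside the same shares. The 4 AP-1 genes with a 2-fold response kept a median of 16.7%, from 9.53% (Junb) to 47.8% (Fos), against 17.5% over all 76 genes. As a share of the rise in counts it was 3.62%, against 8.05%. Fos (ENSMUSG00000021250, chr12:85473890-85477273, + strand, GRCm38 as for all genes here) had normalized counts of 27.9, 28.1 and 62 in Control Sal, 2896 and 2467 in Control PTZ45, 26.7, 32.9 and 33.8 in CBP-ifKO Sal and 162, 248 and 286 in CBP-ifKO PTZ45. Every PTZ45 library stood above every Sal library in both genotypes, and the genotypes did not overlap after PTZ. Its log2 fold change was 6.08 in controls and 2.91 in CBP-ifKOs, a kept fraction of 47.8% (35.5 to 61.4), whereas its rise in counts was 7.60% of the control rise. Fosb had normalized counts of 24, 19.6 and 44 in Control Sal, 2140.0 and 1622 in Control PTZ45, 22.3, 16.5 and 24.3 in CBP-ifKO Sal and 40.7, 52.6 and 81.9 in CBP-ifKO PTZ45, and kept 23.8% (11 to 37.4). Junb (chr8:84974484-84978718, - strand) had normalized counts of 218, 259 and 243 in Control Sal, 1518 and 1223 in Control PTZ45, 121, 148 and 177 in CBP-ifKO Sal and 173, 176 and 177 in CBP-ifKO PTZ45. The CBP-ifKO Sal and PTZ45 libraries overlapped for Junb, and its interaction log2 fold change was -2.28 (SE 0.21, adjusted p 4.86e-23), with a kept fraction of 9.53% (-2.39 to 21.7). Fosl2 kept 9.61% (-15.8 to 36.5), and its interaction call was lost by edgeR (adjusted p 0.0728) and without Control PTZ45 replicate 1 (-0.81). The intervals of Fos and Junb, whose products can pair with each other, did not overlap.

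Egr factors are zinc finger proteins induced through serum response factor, and Nab proteins are their corepressors. The responsive genes were Egr1 to Egr4, all called in the interaction, against 51 of all 76 genes at 2-fold or more (67.1%). Their median kept fraction was 18.9% (4.8% of the rise in counts). The call of Egr2 (adjusted p 0.0396) was lost under 7 of 20 alternatives, among them edgeR (adjusted p 0.0991), the replicate block (0.298) and 1 surrogate variable (0.0584). Egr3 (chr14:70077203-70082614, + strand) had normalized counts of 374, 456 and 481 in Control Sal, 1728 and 1544 in Control PTZ45, 381, 393 and 313 in CBP-ifKO Sal and 415, 378 and 325 in CBP-ifKO PTZ45. Its CBP-ifKO libraries overlapped between treatments, and its kept fraction was 2.84% (-10.3 to 16.1), with an interaction of -1.85 (SE 0.18, adjusted p 2e-20). Egr4 had normalized counts of 21.7, 28.1 and 33.2 in Control Sal, 278 and 232 in Control PTZ45, 20.4, 32.9 and 27.2 in CBP-ifKO Sal and 28.2, 21.8 and 45.6 in CBP-ifKO PTZ45, and kept 9.36% (-9.61 to 28.9). Egr1 had normalized counts of 218, 292 and 388 in Control Sal, 1841 and 1465 in Control PTZ45, 319, 403 and 285 in CBP-ifKO Sal and 523, 536 and 566 in CBP-ifKO PTZ45, and kept 28.4% (10.6 to 48.5). Egr1 was higher in all 3 CBP-ifKO PTZ45 libraries than in all 3 CBP-ifKO Sal libraries, which Egr3 and Egr4 were not. Egr2 had normalized counts of 6.97, 12.2 and 14.4 in Control Sal, 423 and 332 in Control PTZ45, 8.28, 16.5 and 2.94 in CBP-ifKO Sal and 23, 36.7 and 49.2 in CBP-ifKO PTZ45, and kept 42.6% (21.4 to 67.6).

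Npas4, a neuron-specific factor induced by calcium entry, and the Nr4a orphan nuclear receptors kept a median of 28% on the log2 scale. As a share of the rise in counts they kept 6.50%. In the interaction 3 of the 4 were called, against 69 of all 163 responsive genes (42.3%). Npas4 (chr19:4984355-4990316, - strand) had normalized counts of 27.9, 47.7 and 75.5 in Control Sal, 3919.9 and 3272 in Control PTZ45, 33.7, 32.9 and 30.2 in CBP-ifKO Sal and 109, 153 and 211 in CBP-ifKO PTZ45. Both genotypes separated fully by treatment, and the log2 fold changes of 6.16 and 2.29 gave a kept fraction of 37.1% (24.3 to 51.2) but 3.53% of the rise in counts. Nr4a1 had normalized counts of 245, 281 and 393 in Control Sal, 2529 and 2037 in Control PTZ45, 179.5, 265 and 248 in CBP-ifKO Sal and 324, 403 and 481 in CBP-ifKO PTZ45, and kept 28% (11.4 to 46.5). Nr4a2 had normalized counts of 424, 497 and 492 in Control Sal, 1836 and 1761 in Control PTZ45, 327, 419.6 and 337 in CBP-ifKO Sal and 471, 439.5 and 432 in CBP-ifKO PTZ45, and kept 17.4% (6.16 to 29.2). Nr4a3 was under 2-fold in controls (log2 fold change 0.73) and was not called in the interaction (-0.56, SE 0.19, adjusted p 0.699).

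Of 16 other listed genes, mostly inducible transcription regulators, 3 responded. Ier2, a nuclear protein of the early growth factor response, kept 32.8% (9.86 to 59.4) and was called in the interaction (-2.04, adjusted p 0.0183), a call lost under 7 of 20 alternatives, among them edgeR (adjusted p 0.102) and either Control PTZ45 library left out (0.991 and 0.332). Fbxo33, an F-box protein, was under 2-fold in controls and was also called (-0.53, adjusted p 0.0321), a call lost under 13 of 20 alternatives. Atf3, a stress-induced repressor, had a log2 fold change of 3.00 in controls and 0.43 in CBP-ifKOs without a call in the interaction (adjusted p 0.353). Per1, the light-inducible clock gene and a CREB target, had normalized counts of 405, 503 and 523 in Control Sal, 1262 and 942 in Control PTZ45, 425, 483 and 359.6 in CBP-ifKO Sal and 386, 499 and 449 in CBP-ifKO PTZ45. Its CBP-ifKO libraries overlapped between treatments, and it kept 7.23% (-16 to 31.4), with an interaction of -1.12 (SE 0.21, adjusted p 4.02e-05). Sik1, the kinase that silences CREB coactivators, had log2 fold changes of 0.99 in controls and 0.26 in CBP-ifKOs, with no interaction call (adjusted p 1).

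Synaptic effectors act on the synapse itself. Of 12 measured 8 responded, and 6 of these were called in the interaction, against 69 of all 163 responsive genes (42.3%). The 4 at 2-fold or more kept a median of 21.1%. Arc, which drives AMPA receptor endocytosis, had normalized counts of 703, 796 and 1004 in Control Sal, 4889 and 4244 in Control PTZ45, 566, 706 and 777 in CBP-ifKO Sal and 838, 922 and 1279 in CBP-ifKO PTZ45, and kept 23.2% (6.04 to 42.2). Ptgs2, the inducible cyclooxygenase, had normalized counts of 390.3, 388 and 383 in Control Sal, 2259 and 1703 in Control PTZ45, 293, 274 and 289.8 in CBP-ifKO Sal and 426, 419 and 451 in CBP-ifKO PTZ45. All 3 CBP-ifKO PTZ45 libraries of Ptgs2 stood above all 3 CBP-ifKO Sal libraries, and the kept fraction was 25% (15 to 35.5). Rgs2, a brake on G protein signalling, had normalized counts of 389, 382 and 384 in Control Sal, 1385 and 1333 in Control PTZ45, 326, 302 and 309 in CBP-ifKO Sal and 389, 389 and 419 in CBP-ifKO PTZ45, and kept 18.9% (7.76 to 30.5). Pcdh8, the activity-regulated protocadherin arcadlin, had normalized counts of 208, 243 and 281 in Control Sal, 853 and 559 in Control PTZ45, 252, 222 and 215 in CBP-ifKO Sal and 181, 216 and 185 in CBP-ifKO PTZ45. In CBP-ifKOs its 3 PTZ45 values lay between 181 and 216 and its Sal values between 215 and 252, so that the kept fraction was below 0 at -16.2% (-39.1 to 5.00), with an interaction of -1.78 (SE 0.24, adjusted p 1.26e-10).

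Small GTPases of the Arl and Ras families control vesicle traffic and signalling, and 3 of 13 responded. Arl4d (chr11:101665541-101667832, + strand) had normalized counts of 89.8, 79.5 and 76.4 in Control Sal, 906 and 705 in Control PTZ45, 47.7, 74.1 and 80.9 in CBP-ifKO Sal and 64.8, 56.5 and 65.5 in CBP-ifKO PTZ45. The control libraries separated fully and the CBP-ifKO libraries overlapped, which gave a kept fraction of -2.68% (-15.4 to 9.98) and an interaction of -3.38 (SE 0.29, adjusted p 5.16e-28). Rasl11a had a log2 fold change of 1.31 in controls and 0.29 in CBP-ifKOs, and Arl5b 0.59 and 0.28, and neither was called in the interaction (adjusted p 0.432 and 1).

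MAP kinase phosphatases and related inhibitors switch off the ERK pathway that induces many of the other genes, and 5 of 17 responded. Their median kept fraction, 36.7%, was above the 17.5% of all 76 genes, over 3 genes at 2-fold or more. Dusp1 (chr17:26505590-26562128, - strand) had normalized counts of 105, 64.8 and 94.3 in Control Sal, 676 and 613 in Control PTZ45, 64.9, 59.7 and 78.7 in CBP-ifKO Sal and 134, 211 and 221 in CBP-ifKO PTZ45. Both genotypes separated fully by treatment, and Dusp1 kept 50.9% (36.2 to 67.7), with an interaction of -1.40 (SE 0.29, adjusted p 0.000618). Dusp6 had normalized counts of 631, 560.1 and 657 in Control Sal, 1518 and 1331 in Control PTZ45, 478, 471 and 618 in CBP-ifKO Sal and 689.6, 682 and 776 in CBP-ifKO PTZ45, and kept 36.7% (17.7 to 58.8). Errfi1, an inhibitor of EGF receptors, kept 20.9% (-3.54 to 48.4), and Dusp5 was under 2-fold and not called in the interaction (-0.66, adjusted p 1). By edgeR, with all libraries, the interaction calls of Dusp1 (adjusted p 0.0702), Dusp6 (0.0678) and Errfi1 (0.153) were lost. They were also lost without Control PTZ45 replicate 1, at -1.33, -0.67 and -0.69.

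Growth arrest and stress genes were 6 of 12 responsive, and the 4 at 2-fold or more kept a median of 9.80%. Btg2, an antiproliferative cofactor of mRNA deadenylation, had normalized counts of 173, 232 and 217 in Control Sal, 3368 and 3013 in Control PTZ45, 127, 125 and 151 in CBP-ifKO Sal and 265, 330.4 and 404 in CBP-ifKO PTZ45. It was higher in every PTZ45 library than in every Sal library in both genotypes, and it kept 32.7% (25.2 to 40.6). Gadd45g, a stress sensor linked to DNA demethylation, had normalized counts of 55, 73.4 and 53.9 in Control Sal, 559 and 466 in Control PTZ45, 50.3, 45.3 and 49.3 in CBP-ifKO Sal and 38.7, 66.5 and 43.3 in CBP-ifKO PTZ45. Its CBP-ifKO libraries overlapped between treatments, with a kept fraction of 0.872% (-14 to 15.8) and an interaction of -3.07 (SE 0.31, adjusted p 4.41e-19). Ppp1r15a, the stress-induced subunit that directs protein phosphatase 1 to eIF2alpha, had normalized counts of 67.4, 97.8 and 88 in Control Sal, 355 and 417 in Control PTZ45, 101, 94.6 and 72.1 in CBP-ifKO Sal and 90.9, 121 and 97.1 in CBP-ifKO PTZ45, and kept 10.04% (-7.76 to 28.5). Gadd45b kept 9.56% and was not called in the interaction (-1.09, adjusted p 0.248), except without CBP-ifKO PTZ45 replicate 3, where it was -1.33. The pseudokinase gene Trib1 and the mRNA decay gene Zfp36, each the only responsive gene of its class, kept 8.53% and 2.19% with wide intervals (-31.4 to 51.3, and -36.4 to 41.6) and were not called in the interaction (adjusted p 0.212 and 0.0689). Zfp36 was called under 4 of 20 alternatives: with 1 surrogate variable (-2.18), with a GC correction (-2.17), without CBP-ifKO Sal replicate 3 (-2.50) and without CBP-ifKO PTZ45 replicate 2 (-2.45).

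**Figure D3:**
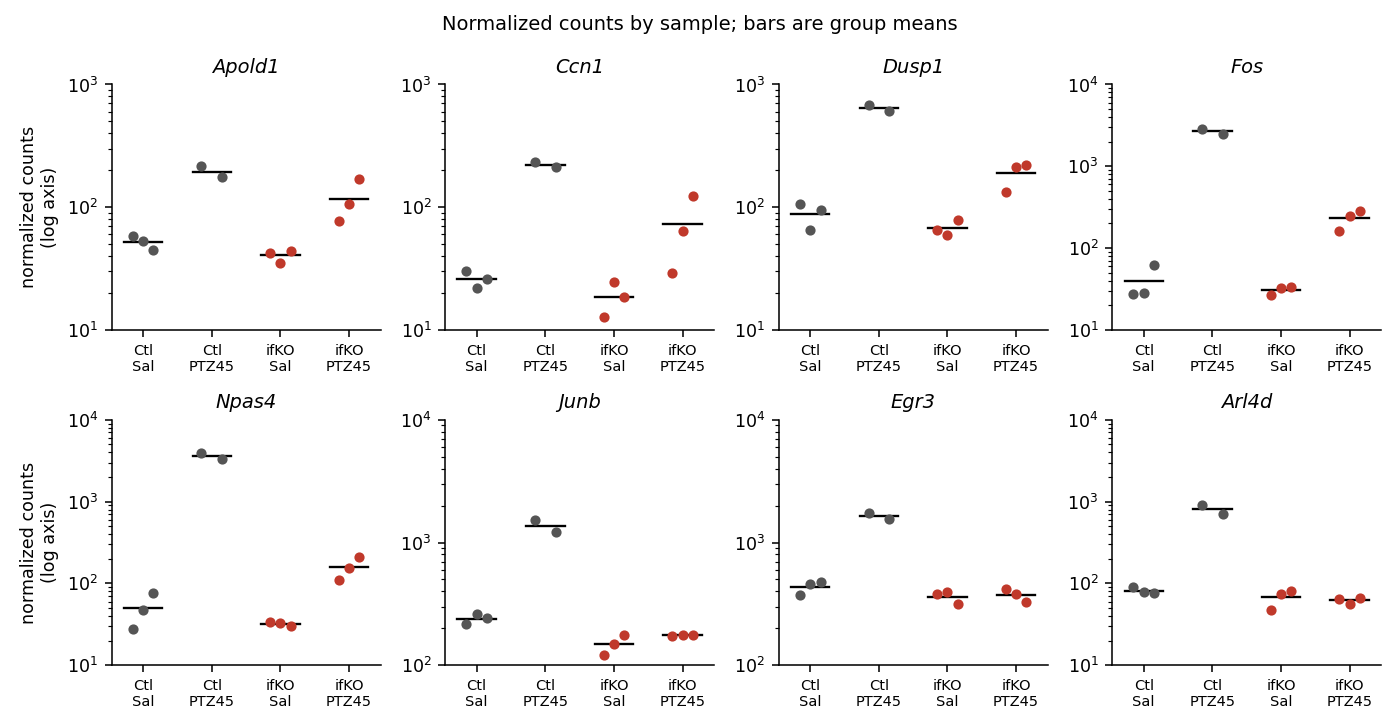
Normalized counts (log axis) of Apold1, Ccn1, Dusp1, Fos, Npas4, Junb, Egr3 and Arl4d in each of the 11 libraries, with the group means as bars. The CBP-ifKO PTZ45 libraries of Arl4d (56.5 to 65.5) lie among the CBP-ifKO Sal libraries, while those of Apold1 (77.3 to 169) lie above all Sal libraries.

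Vascular and matrix genes, best known from endothelial cells and astrocytes, had the highest median kept fraction of the classes. Of 12 measured 3 responded, none was called in the interaction, and the median kept fraction was 65.2% on the log2 scale and 27.5% of the rise in counts. Apold1, an endothelial immediate early gene (chr6:134981718-134986836, + strand), had normalized counts of 58.1, 52.6 and 44.9 in Control Sal, 215 and 175 in Control PTZ45, 42.7, 35 and 44.1 in CBP-ifKO Sal and 77.3, 106 and 169 in CBP-ifKO PTZ45. All PTZ45 libraries were above all Sal libraries in both genotypes, and the highest CBP-ifKO PTZ45 value was close to the lower Control PTZ45 value. It kept 78.3% (48.3 to 122), or 53.6% of the rise in counts, with an interaction of -0.42 (SE 0.38, adjusted p 1). Ccn1, a matrix protein of the Yap and serum response programmes formerly called Cyr61, had normalized counts of 30.2, 22 and 26.1 in Control Sal, 233 and 213 in Control PTZ45, 12.7, 24.7 and 18.4 in CBP-ifKO Sal and 29.3, 64.5 and 124 in CBP-ifKO PTZ45. It was also higher in every CBP-ifKO PTZ45 library than in every CBP-ifKO Sal library, and kept 65.2% (30.7 to 118), with an interaction of -1.07 (SE 0.75, adjusted p 1). An interaction that misses the threshold does not show equal responses, and both intervals reached below 50%.

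The 3 CBP-ifKO PTZ45 libraries differed widely for these genes. Taken singly, they gave class medians of 20.6%, 72.2% and 87.8%. In replicate 1 the MAP kinase phosphatases (33.1%) and the transcripts inside Homer1 with the miRNA host (37.5%) stood higher. Apold1 kept 48.3%, 72.2% and 107%, and Ccn1 20.6%, 57.1% and 87.8%. Over 20 alternative settings Apold1 kept between 59.9% and 90.1% and Ccn1 between 46.9% and 79.3%. Summed over 9 endothelial and mural markers, the level was 3473 to 3510.5 normalized counts in Control Sal, 3398 to 3515 in Control PTZ45, 2743 to 3693 in CBP-ifKO Sal and 2989 to 3433 in CBP-ifKO PTZ45. None of the 9 was at 0. None was called in any of the comparisons, against at most 0.939% of all genes in 1 direction, so nothing is read from this count. The part of vessel content in these values was not tested. Adamts1, a matrix protease, had normalized counts of 343, 362 and 314 in Control Sal, 835 and 689.8 in Control PTZ45, 292, 163 and 163 in CBP-ifKO Sal and 179.7, 415 and 232 in CBP-ifKO PTZ45. Its high CBP-ifKO libraries, Sal replicate 1 and PTZ45 replicate 2, were also the highest for the 8 choroid plexus markers, and it kept 35.3% (-27.1 to 152). Its interaction was called with 1 surrogate variable, at -0.87 (adjusted p 0.00857), and without CBP-ifKO PTZ45 replicate 2, at -1.20 (adjusted p 0.0124).

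Late response genes, induced hours after the first wave and dependent on it, were mostly not called at 45 min. Of 15 measured 2 were called higher in controls, both under 2-fold, against 0.939% of all genes. In the interaction 0 were called, against 0.329% of all genes, and nothing is read from that 0 in a list of this size. Scg2, a secretogranin, had normalized counts of 2362, 2226 and 2445 in Control Sal, 3214 and 3517 in Control PTZ45, 2048, 2096 and 2337 in CBP-ifKO Sal and 2279.8, 2245 and 2701 in CBP-ifKO PTZ45, and its log2 fold change was 0.52 in controls and 0.16 in CBP-ifKOs. Nptx2, a pentraxin that clusters AMPA receptors, had normalized counts of 92.9, 109 and 120.4 in Control Sal, 229 and 169 in Control PTZ45, 42, 51.4 and 62.5 in CBP-ifKO Sal and 73.1, 54.6 and 72.6 in CBP-ifKO PTZ45, with log2 fold changes of 0.90 and 0.36. The other 13 (Bdnf, Penk, Pdyn, Inhba, Vgf, Acan, Frmpd3, C1ql2, C1ql3, Npy, Crh, Tac1 and Nptx1) had control log2 fold changes from -0.41 (Crh) to 0.41 (Penk), and no fraction is given for so small a response. Bdnf, the neurotrophin, had normalized counts of 554, 547 and 532 in Control Sal, 734 and 674 in Control PTZ45, 322, 307 and 349 in CBP-ifKO Sal and 396, 391 and 356 in CBP-ifKO PTZ45, which gave log2 fold changes of 0.37 in controls and 0.22 in CBP-ifKOs, with an interaction of -0.16 (SE 0.15, adjusted p 1).

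Noncoding transcripts inside Homer1 and at a neuronal miRNA locus had a higher median kept fraction than the 76 genes together. Gm47075 and Gm47088 lie inside Homer1 on its strand, and 1700016P03Rik is the host transcript of a pair of CREB-induced neuronal miRNAs. All 3 were called in the interaction, with a median kept fraction of 43.3%, from 33.9% to 44.2%. They also had the largest control responses of the responsive noncoding genes (log2 4.37, 4.20 and 3.70). The 26 genes of the 76 with the strongest control response kept a median of 27.9%, and 23 of them were called. Gm47075 (chr13:93312041-93314055) had normalized counts of 44.9, 45.2 and 73.7 in Control Sal, 1249 and 1014 in Control PTZ45, 57.9, 51.4 and 36.8 in CBP-ifKO Sal and 171, 188 and 179 in CBP-ifKO PTZ45, and kept 43.3% (34.2 to 53.1). Gm47088 (chr13:93317427-93319065) had normalized counts of 24, 28.1 and 40.4 in Control Sal, 639.5 and 494 in Control PTZ45, 50.9, 45.3 and 26.5 in CBP-ifKO Sal and 94, 108 and 124 in CBP-ifKO PTZ45, and kept 33.9% (22.7 to 46.1). Both separated fully by treatment in both genotypes. Homer1 as a whole changed less, with log2 fold changes of 0.42 in controls and 0.13 in CBP-ifKOs, a kept fraction of 31.0%. Reads from an intronic transcript and from the host cannot be told apart by counts over exons of overlapping genes, and the sources used here do not say whether strand was used.

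1700016P03Rik (chr11:75172560-75177633) had normalized counts of 13.2, 15.9 and 17.1 in Control Sal, 219.6 and 178 in Control PTZ45, 6.37, 8.23 and 8.09 in CBP-ifKO Sal and 20.9, 16.9 and 31.6 in CBP-ifKO PTZ45, and kept 44.2% (21.9 to 69.4). Its CBP-ifKO PTZ45 libraries were all above the CBP-ifKO Sal libraries, and the lowest of them lay within the range of the Control Sal libraries. Its interaction call (-2.07, adjusted p 0.036) was lost under 13 of 20 alternatives. The mature miRNAs of this locus, which were not measured in these libraries, share their seed (bases 2 to 8, in capitals), shown because 1 host transcript carries both, and are given by RefSeq (GRCm38.p6) at chr11:75173723-75173744 and chr11:75173443-75173464, + strand.
mmu-miR-132-3p: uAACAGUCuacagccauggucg
mmu-miR-212-3p: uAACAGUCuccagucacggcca

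Ovca2, a small hydrolase gene that overlaps the host transcript on the other strand, had normalized counts of 133, 122 and 129 in Control Sal, 672 and 612 in Control PTZ45, 105, 138 and 109 in CBP-ifKO Sal and 176, 146 and 189.6 in CBP-ifKO PTZ45, and kept 24.9% (11.5 to 39.2). With strand unstated its counts may hold reads of the host transcript.

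Across all responsive noncoding genes, 39 in number, 30 overlapped a protein-coding gene, 20 on its strand and 10 on the other, and for 7 of the 39 the overlapped gene was itself called higher in controls. The 26 at 2-fold or more outside the 3 transcripts at the Homer1 and miRNA loci kept a median of 17.5%, from -16.6% (Snora31) to 50.5% (Gm30177), the same value as over all 76 genes, and 11 of them were called in the interaction. C630044B11Rik, inside Ntrk2, had normalized counts of 53.4, 45.2 and 71 in Control Sal, 521 and 415 in Control PTZ45, 61.1, 72 and 41.2 in CBP-ifKO Sal and 131, 120.0 and 96 in CBP-ifKO PTZ45, and kept 34.5% (20.2 to 50.3). Gm47423, on the other strand of Ntrk2, kept 27.9% (9.31 to 48.6). Ntrk2, the gene of the BDNF receptor TrkB, had a control log2 fold change of 0.09 (adjusted p 0.909), so 2 transcripts at its locus responded while the gene as a whole was not called. Gm38257, inside Arl5b, had a control log2 fold change of 2.68 against 0.59 for Arl5b, and kept 25.7% (7.97 to 44.9). Gm37824, on the other strand of C1ql3, had normalized counts of 167, 149 and 171 in Control Sal, 719.5 and 774 in Control PTZ45, 167, 179 and 163 in CBP-ifKO Sal and 229, 190.5 and 198 in CBP-ifKO PTZ45, and kept 13.3% (1.10 to 26). Gm43361, on the other strand of Atp2a2, kept 10.2% (-5.80 to 26.9), and Gm44639, inside Abhd2, kept -14.4% (-71.9 to 35) and was not called in the interaction (adjusted p 0.191), except with 1 surrogate variable (-1.50) and without CBP-ifKO Sal replicate 3 (-1.79).

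Protein-coding genes outside the lists had a lower median kept fraction than the listed genes on the log2 scale. As a share of the rise in counts it was nearly the same (6.95% against 7.38%). The 15 at 2-fold or more had a log2 median of 13.6%, from -8.72% to 28.6%, and 13 of them were called in the interaction. The 35 listed genes, among them the 3 noncoding transcripts at the Homer1 and miRNA loci, had a median of 23.2% and 27 calls. The difference between these medians was not tested, and the listed genes also had the larger median control response (log2 2.47 against 1.38). Gm13889 had normalized counts of 75.9, 77 and 69.2 in Control Sal, 287 and 266 in Control PTZ45, 56, 67.9 and 75.8 in CBP-ifKO Sal and 53.3, 60.5 and 63.2 in CBP-ifKO PTZ45, and kept -8.72% (-31.8 to 13.6). Gm45902 had normalized counts of 162, 176 and 179.7 in Control Sal, 646 and 570.0 in Control PTZ45, 188, 202 and 199 in CBP-ifKO Sal and 199, 193 and 217 in CBP-ifKO PTZ45, and kept 2.77% (-11.8 to 17.5). The CBP-ifKO libraries of both genes overlapped between treatments. Ifrd1, a stress-induced coregulator, and Tiparp, an ADP-ribosyltransferase, kept 26.4% (8.11 to 46.6) and 28.6% (11 to 48.2). Fbl (nucleolar fibrillarin), Rpl10 (a ribosomal protein), Actg1 (cytoplasmic actin) and Tpt1 (translationally controlled tumour protein) kept -4.68%, 0.648%, -1.03% and 16.2%. These 4 genes have near-identical copies elsewhere in the genome, and reads that map to several places were discarded, so their counts are uncertain. H3f3b, a histone H3.3 gene with a control log2 fold change of 0.59, kept 68.4% (32.7 to 126) and was 1 of the 16 genes called in both genotypes.

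**Figure D4:**
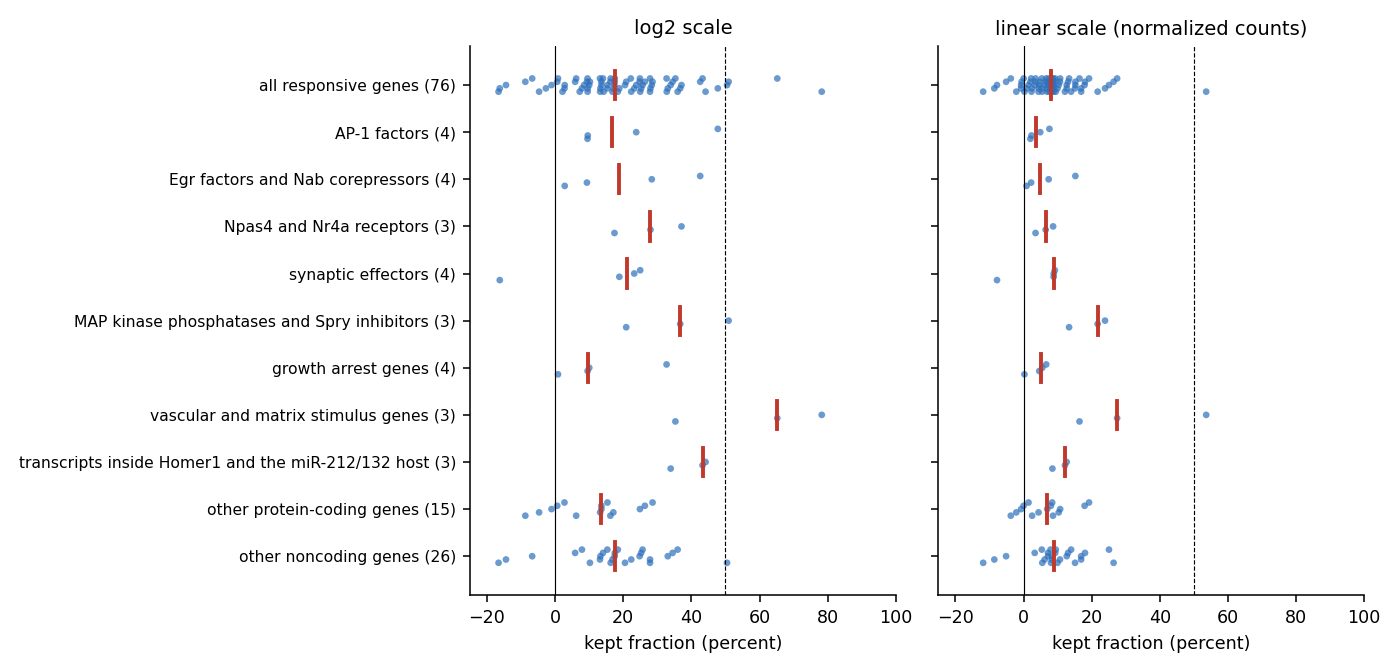
Kept fraction (percent of the control log2 response) of each gene with at least a 2-fold control response, for all 76 genes and by class, on the log2 scale (left) and as a share of the rise in normalized counts (right), with medians as red bars and lines at 0% and 50%. On the log2 scale the vascular and matrix class (65.2%), the transcripts inside Homer1 with the miRNA host (43.3%) and the MAP kinase phosphatases (36.7%) have the highest medians. In CBP-ifKO PTZ45 replicate 1 alone these medians were 20.6%, 37.5% and 33.1%.

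The class order depended partly on the scale. As a share of the rise in counts the vascular and matrix genes (27.5%), the MAP kinase phosphatases (21.8%) and the transcripts inside Homer1 with the miRNA host (12.2%) were still above the median of all 76 genes (8.05%), while the Egr class and the Npas4 and Nr4a class moved from above it to below it. The 25 genes with the weakest control response (log2 1.03 to 1.55) kept a median of 15.4% on the log2 scale, the middle 25 kept 15.3% and the 26 with the strongest response (2.43 to 6.16) kept 27.9%. As a share of the rise in counts the same groups kept 8.65%, 7.18% and 7.81%. By mean level the medians were 15.3%, 17.5% and 23.5% from the lowest to the highest tertile, and by exonic GC content 20.5%, 17.4% and 9.82%. Neither order held in every CBP-ifKO PTZ45 library: by mean level replicate 2 gave 21.6%, 19.9% and 19.7%, and by GC content replicate 3 gave 13.1%, 14.3% and 26.6%. By transcript length the medians were 16.2%, 24.8% and 14.7%.

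Classes also differed in how the single CBP-ifKO PTZ45 libraries ranked. Over the 76 genes the median kept fractions were 17.8%, 20.0% and 14.4% in replicates 1, 2 and 3. Among the 35 listed genes they were 16.8%, 23.4% and 30.6%, with replicate 1 the lowest in 26 genes and replicate 3 the highest in 22. Among the 26 other noncoding genes they were 19.3%, 21.6% and 12.9%, with replicate 3 the highest in 3 and the lowest in 11, and among the 15 other coding genes 14.4%, 12.5% and 1.73%. In the other coding genes the median and the count differed in direction, since replicate 3 was the highest in 6 of the 15 and the lowest in 3. These are values of 3 libraries, and their differences were not tested. Of the Control PTZ45 libraries, replicate 1 was above replicate 2 in 66 of the 76 genes.

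**Figure D5:**
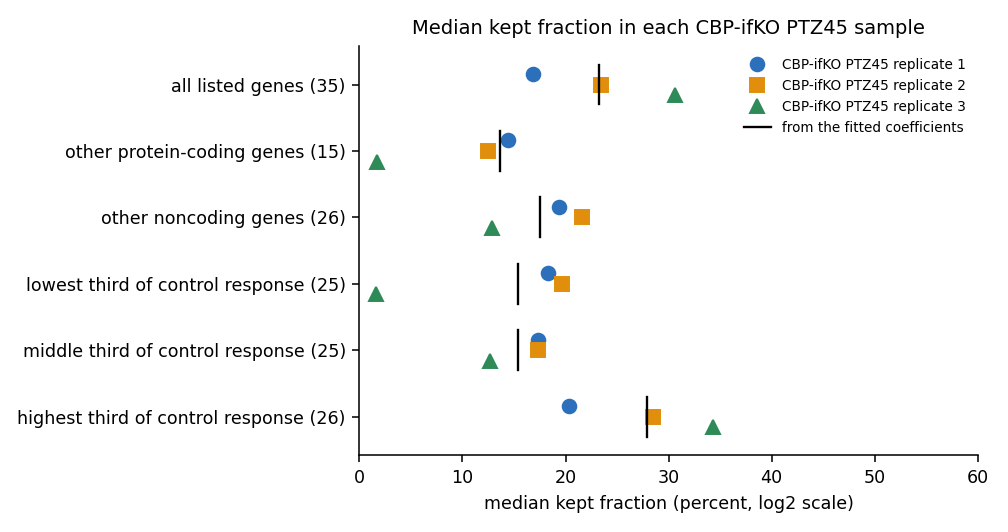
Median kept fraction (percent of the control log2 response) in each of the 3 CBP-ifKO PTZ45 libraries (symbols) and from the fit of all libraries (black bars), for listed, other protein-coding and other noncoding genes with at least a 2-fold control response and for tertiles of the 76 genes by size of the control response. The median of the listed genes is highest in replicate 3 (30.6%), and that of the other coding genes is lowest there (1.73%).

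Genes lowered by PTZ had a higher median kept fraction than genes raised by it, on smaller effects. The 41 genes called lower in controls had a median log2 fold change of -0.46 there and -0.38 in CBP-ifKOs, a median kept fraction of 70.7% (quartiles 48.4% and 119.7%). None of them was called in the interaction, 10 were also called lower in CBP-ifKOs (24.4% of each list of 41), and 38 had a negative CBP-ifKO value. The largest falls were in Hist1h4c, a replication-dependent histone gene with near-identical copies, Pcsk1n, a proprotein convertase inhibitor, Gcnt1, a glycosyltransferase, and Engase, a deglycosylating enzyme. Hist1h4c had normalized counts of 305, 257 and 207 in Control Sal, 134 and 127 in Control PTZ45, 173, 300.3 and 282 in CBP-ifKO Sal and 158, 141 and 165 in CBP-ifKO PTZ45, and kept 70.7% (29.8 to 145). Pcsk1n had normalized counts of 273, 284 and 224 in Control Sal, 164 and 110.1 in Control PTZ45, 195, 317 and 288 in CBP-ifKO Sal and 117, 97.2 and 140.5 in CBP-ifKO PTZ45, and kept 127% (72.6 to 251). Gcnt1 and Engase kept -12.2% (-82.7 to 45.7) and 48.4% (3.83 to 127). The median exonic GC content of the 41 genes was 60.9%, against 48.3% over all genes tested. The control count fell to 6 with a GC correction, 11 with 1 surrogate variable and 2 without Control Sal replicate 2, so the kept fraction of this group rests on unstable calls.

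Library totals were 5831992 to 18735643 counts, the lowest in CBP-ifKO Sal replicate 2. Crebbp had 1813 to 2413 normalized counts in the 5 control libraries and 1053 to 1329 in the 6 CBP-ifKO libraries, and Arsi and Esr1, higher in the CBP-ifKOs, did not overlap between the genotypes either, while Ep300 did. Of 9 lists of cell type markers, 5 to 9 genes each, 0 genes were called in the interaction or in either PTZ45 comparison. Over all genes the called shares were 0.329% in the interaction and at most 0.939% in 1 direction of a PTZ45 comparison. At such shares nothing about cell content is read from this count. The 8 choroid plexus markers summed to 10937 in Control Sal replicate 2, 44600.0 in CBP-ifKO Sal replicate 1 and 30418 in CBP-ifKO PTZ45 replicate 2, against 423 to 889 in the other 8 libraries. Without these libraries in turn 50, 58 and 55 genes were called lower in the interaction, and the median kept fraction was 18%, 18.8% and 18.3%. The summed CA1 pyramidal markers were lower in both CBP-ifKO groups (2810.0 to 3785) than in both control groups (4091 to 4821). The summed interneuron markers were also lower (5717 to 6313 against 6526 to 6755), the dentate granule cell markers overlapped (4437 to 4839 against 4164 to 5086), and in bulk tissue fewer cells and less RNA per cell cannot be told apart. Kindled mice given a final saline injection were also used as the baseline in place of Sal mice. With them 82 genes were called lower in the interaction, and the median kept fraction was 20.2%. Both CBP-ifKO groups are then on lane 5. The control groups stay on lanes 3 and 4, so lane and control response still cannot be told apart.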

How the data were processed

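Raw read counts per gene were used for 11 libraries of mouse hippocampal total RNA (single-end reads). Per the methods and the submitters' processing notes, the authors ran FastQC 0.11.8 and Trim Galore 0.6.4, aligned with STAR 2.6.1 to mm10 (GRCm38), kept reads of sufficient mapping quality and deposited whole-number counts over Ensembl exons made with Rsubread. Whether strand was used is not given in the sources used here. The gene length column deposited by the authors was not used for tests. A further Control PTZ45 column, 1 in number, had no matching sample and was not used.

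The interaction was tested with DESeq2 1.42.0 (Wald test, genotype, treatment and their product, Benjamini-Hochberg over genes with at least 1 count, independent filtering, calls under 0.05), after the tool of the study (DESeq2 1.30.1), and the contrast with 0.5 of the control response came from the same fit. Responsive genes came from the 2 control groups alone, and CBP-ifKO calls from the 2 CBP-ifKO groups alone. Fold changes in the text are those of the 11-library fit, counts are divided by size factors, and p-values are two-sided. The tests were tested on simulated data. The methods name individual mice for the saline samples alone, and p-values measure the spread between samples, which differed by more than counting noise within every group (chi-square per degree of freedom 4.05 to 18.01 over 10 pairs).

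The libraries were picked by their labels, but the comparison, its genes and the gene lists were chosen with earlier results of these data known. Named genes are the 15 interaction calls of lowest adjusted p among genes averaging 50 or more normalized counts, the 8 that kept most and the 8 that kept least among 2-fold genes of that level, the 4 largest falls, up to 4 called members of each list, all late response genes, all genes called higher in CBP-ifKOs, and Crebbp, Ep300, Esr1 and Arsi. Genes named outside this rule (Gm38257, Gm47423, Gm30177, Snora31, Kif18a, Jun, Ifrd1, Tiparp, Actg1, Tpt1, Homer1 and Ntrk2) were chosen after their values were seen. Alternatives were edgeR 4.0.16 (quasi-likelihood), TMM factors, a filter of at least 10 counts in 2 libraries, 1 fit of all 17 libraries, a block for the replicate number, 1 surrogate variable (sva 3.50.0), a GC correction, saline-injected kindled mice as the baseline, no Cook filter, and each library left out in turn.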

Additional observations from a re-analysis of the deposited data

Results flagged for a closer look

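The response to PTZ differed between controls and CBP-ifKOs by the test of the interaction itself in 69 genes, all with the lower response in CBP-ifKOs. The values given here are interaction log2 fold changes, the CBP-ifKO response minus the control response, for the named genes among the 69, with DESeq2.

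Among transcription factors the difference was -4.57 for Fosb, -3.88 for Npas4, -3.18 for Fos, -2.92 for Egr2, -2.91 for Egr4, -2.28 for Junb, -2.09 for Nr4a1, -2.04 for Ier2, -1.85 for Egr3, -1.77 for Egr1, -1.60 for Nr4a2, -1.12 for Per1 and -1.0 for Fosl2. Fbxo33, an F-box protein, gave -0.53. Among synaptic effectors and small GTPases it was -3.38 for Arl4d, -1.88 for Arc, -1.78 for Pcdh8, -1.77 for Ptgs2 and -1.48 for Rgs2. Signalling inhibitors and growth arrest genes gave -1.40 for Dusp1, -0.90 for Errfi1, -0.76 for Dusp6, -3.07 for Gadd45g, -2.66 for Btg2 and -1.98 for Ppp1r15a.

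Noncoding transcripts gave -2.78 for Gm47088, -2.48 for Gm47075, -2.07 for 1700016P03Rik, -1.99 for C630044B11Rik, -1.90 for Gm37824 and -1.52 for Gm43361. Other coding genes gave -2.07 for Gm13889, -2.04 for Fbl, -1.77 for Gm45902 and -1.74 for Ovca2. All 35 of these genes kept their sign under 20 alternatives, and 26 of them kept their call under all 20.

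The other 9 lost the call under some alternatives: 1700016P03Rik and Fbxo33 under 13 of 20, Egr2 and Ier2 under 7, Errfi1 under 5, Dusp6 under 3, Dusp1 and Fosl2 under 2 and Per1 under 1. By edgeR 8 of these calls were lost, and 8 were lost without Control PTZ45 replicate 1, more than without any other library. Without it Dusp1 was -1.33, Dusp6 -0.67, Errfi1 -0.69, Ier2 -1.88, Fosl2 -0.81, Per1 -0.90, Fbxo33 -0.41 and 1700016P03Rik -1.91, none of them called. With that library out, the lone Control PTZ45 library is assumed to vary like the other groups. Egr2 lost its call with the replicate block (-3.09), without Control Sal replicate 2 (-3.01) or 3 (-3.18), and on leaving out CBP-ifKO Sal replicate 1 (-2.93) or, in turn, CBP-ifKO PTZ45 replicate 2 (-2.96).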

How the results depend on the processing

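Interaction genes with a lower response in CBP-ifKOs, 69 by DESeq2, were 43 by edgeR and 50 to 82 under the other settings with all libraries. By edgeR 4 genes were higher in CBP-ifKOs and 8 responsive genes kept less than 0.5 of the control response. The calls of genes lower in controls (41) were the least stable, with 11 under 1 surrogate variable, 6 under the GC correction and 12 with saline-injected kindled mice as the baseline. Leaving out each library in turn gave 37 to 65 interaction genes lower, 0 to 2 higher, 105 to 163 control genes higher, 2 to 41 lower, 6 to 17 genes higher in CBP-ifKOs, 10 to 18 keeping less than 0.5 and a median kept fraction of 17.5% to 25.5%. The extremes of 37 genes and 25.5% were without Control PTZ45 replicate 1, over 51 genes at 2-fold. The median was 8.05% on the scale of counts, 20.5% without the 2-fold minimum and 24.9% with a 4-fold minimum (33 genes). No responsive gene was called as keeping more than 0.5 by the tests of these settings, although 4 of the 76 genes had a kept fraction above 50%. Of the interaction values of named genes under 20 alternatives 1418 stayed on their side of the threshold, 53 lost the call, 9 gained it and none of those called changed sign.

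Whether the replicate numbers pair the samples cannot be decided here, since deviations were taken from means of 2 or 3 libraries. Their correlation ran from -0.30 to 0.48 between same-numbered libraries and from -0.51 to 0.63 between differently numbered ones. The numbers are those of the sample titles, and that of Control PTZ45 replicate 2 differs from the number in its column name. With the number as a block 50 genes were called lower and 3 higher in the interaction, 69 control genes higher and 4 lower, and the median kept fraction was 21.4%. Depth was not varied. Among the 25 genes in the lowest tertile of mean level 7 were called in the interaction, against 25 of 26 in the highest.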

Other observations

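The 6 libraries of kindled mice given a final saline injection belong to no group of the comparison. For the 76 genes raised at least 2-fold by PTZ45 in controls, the median log2 ratio to the Sal mean of the same genotype was -0.13, -0.03 and -0.04 in the 3 control libraries of that kind and -0.07, -0.10 and -0.11 in the 3 CBP-ifKO ones. The Sal libraries themselves ran from -0.13 to 0.10 in controls and from -0.09 to 0.10 in CBP-ifKOs, so all 6 values lay within or next to the range of unkindled mice.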
